A study of Mus musculus with 20 samples.

Results

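Granulocyte-monocyte progenitors (GMP) were set against multipotent progenitors (MPP). The aim was to separate myeloid genes already above their lymphoid level in MPP from those above it in GMP but not in MPP. The comparison rested on 5 of the 20 Affymetrix arrays of the series, chosen by their titles: 3 GMP arrays and 2 MPP arrays. All 5 held RNA from wild-type mice of the C57bl/6 strain, aged 8 to 14 weeks, with bone marrow as the tissue. The cells had been sorted straight into lysis buffer, and the RNA was amplified and biotin-labelled before hybridisation. Pro-B cells (ProB, 2 arrays) and CD4 T cells (CD4T, 2 arrays) of the same genotype, strain and age gave the level of a myeloid gene in lymphoid cells. The lymphoid arrays differed in sex-linked transcripts: Xist read 3.81 to 4.40 in GMP, 3.84 to 3.96 in MPP and 9.87 to 10.73 in ProB and CD4T, and the Y-linked Eif2s3y read 8.64 to 8.88, 6.96 to 8.11 and 2.49 to 2.73. The part of this difference in the levels set against lymphoid cells was not tested. Hematopoietic stem cells (HSC, titled WT) and lymphoid-primed multipotent progenitors (LMPP), with 2 arrays each, were read beside them. The remaining arrays, of common lymphoid progenitors and of mature NK cells from Rag2-deficient mice with or without Ets1, entered the estimate of spread. Ages were 8 to 14 weeks throughout. Separate animals are not named for replicate arrays, so p-values reflect how far these arrays spread, and that spread may be technical. In bulk samples, fewer cells of a type and less RNA per cell cannot be told apart.

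Blood cells of the granulocyte and monocyte lineages descend from multipotent progenitors through GMP, which no longer make red cells, platelets or most lymphocytes. Neutrophil granules are filled in order: proteases and myeloperoxidase of the primary (azurophil) granules are made first, and the iron-binding and antimicrobial proteins of secondary and tertiary granules are made later. Multipotent cells are known to carry low amounts of RNA from several lineages at once, which is called lineage priming, and the transcription factors PU.1, C/EBPα, IRF8 and GFI1 direct the choice between the fates.

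Levels are given as log2 intensity, on which 1 unit is a doubling, and differences are GMP minus MPP unless stated. Of 13479 genes tested with limma, 2912 (21.6%) were higher and 2056 (15.3%) lower in GMP at an adjusted p below 0.05, and the median difference was -0.02. The fit used the spread of all 20 arrays. Replicates correlated at 0.994 to 0.997 among GMP arrays and at 0.975 between the MPP arrays, against 0.860 to 0.886 between the groups. Arrays of the 2 groups did not overlap for 35.3% of genes with GMP above and 35.2% with GMP below. The labelled cell types were checked against their markers. Mpo, Elane, Prtn3, Ctsg, Fcgr3 and Csf1r were higher in GMP, and Flt3, Cd34, Hlf and Meis1 were lower, while Kit did not pass the test (-0.81, adjusted p = 0.168). A measure of RNA integrity and amplification moved with the group. The 3' minus 5' difference of the actin control probe sets was 6.44 to 6.68 in GMP and 1.88 to 2.18 in MPP, and it did not exceed 5.27 on the 17 arrays of other groups. Its part in the differences below cannot be told apart from the groups by design. With it as a covariate, an alternative chosen after seeing the data, 2472 genes were higher and 879 lower in GMP.

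A panel of 118 myeloid genes in 6 lists was followed. Of these, 102 were tested, 4 (Olfm4, Itgam, Pirb and C3ar1) were too dim, and 12 were not analysed here. In GMP 55 of the 102 rose (53.9%), 10 fell (9.8%) and 37 did not pass the test, with a median difference of 1.30. The shares over all genes tested were 21.6% and 15.3%. GMP arrays lay above MPP arrays without overlap for 64 and below for 20, against 35.3% and 35.2% of all genes tested. A gene was counted as used in GMP when it lay at least 1 log2 unit above the mean of ProB and CD4T and was called. It was then counted as primed when MPP, too, stood at least 1 unit above lymphoid cells and was called. It was counted as new in GMP when MPP was under 1 unit and not called above, and GMP exceeded MPP by at least 1 unit with a call. By this rule 59 panel genes were used in GMP (57.8%, against 12.4% of all genes tested). Of the 59, 19 were already primed in MPP, 32 were new in GMP and 8 fitted neither definition. New did not mean absent from MPP. Of the 32 new genes, 19 lay above the array median on both MPP arrays and 12 below it on both. Among all 877 genes new in GMP, 726 lay above and 117 below. The split among panel genes, 32.2% primed and 54.2% new, lay near that among all 1668 genes used in GMP, of which 28.6% were primed and 52.6% new. The classes are read from the contrasts and have no test of their own.

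The split ran along the lists. Among primary granule genes used in GMP, 8 of 10 were primed and 1 was new. Among secondary, tertiary and late neutrophil genes, 0 of 11 were primed and 10 were new. Among monocyte and macrophage genes 0 of 12 were primed and 10 were new. These counts are of the main fit. With arrays centred on housekeeping genes, Hp, Sirpa and Ms4a6c, in neither class in the main fit, counted as primed. Transcription factors divided into 6 primed and 2 new of 9, and receptors and adaptors into 5 primed and 7 new of 15. Both NADPH oxidase genes used in GMP were new. All genes tested were primed in 3.54% and new in 6.51%.

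**Figure D1:**
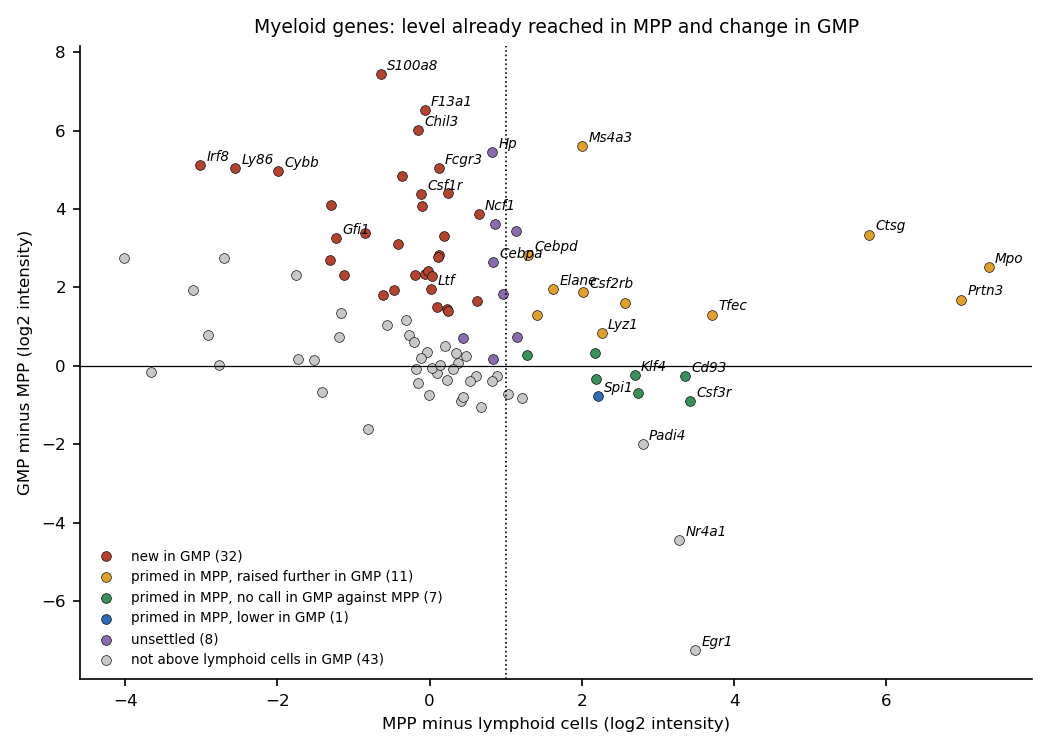
Each point is 1 of the 102 tested myeloid panel genes. The x axis shows MPP minus lymphoid cells and the y axis GMP minus MPP, both in log2 intensity, and colours show the class. Both axes use the MPP arrays. Mpo, Prtn3 and Ctsg lie far to the right, and S100a8, F13a1 and Chil3 lie near 0 on the x axis and above 6 on the y axis. The dotted line marks the class threshold of 1.

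The promoters of 4 primed protease and peroxidase genes and of 2 new genes are shown as examples. They come from RefSeq on GRCm38.p6, run from 250 bases before to 50 bases after the start site, and are printed 5' to 3' on the gene's strand. Capitals mark matches, on either strand, to GAGGAA for ETS factors such as PU.1, TTGCNNAA for C/EBP factors, TGTGGT for RUNX factors or AGATAA for GATA factors.
Mpo promoter, chr11:87793534-87793833 (plus strand): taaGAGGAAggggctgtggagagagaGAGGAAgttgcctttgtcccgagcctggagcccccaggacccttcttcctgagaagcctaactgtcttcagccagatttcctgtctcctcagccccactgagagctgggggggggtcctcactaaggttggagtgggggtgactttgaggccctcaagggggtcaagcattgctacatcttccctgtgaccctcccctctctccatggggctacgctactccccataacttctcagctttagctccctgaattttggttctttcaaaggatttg
Prtn3 promoter, chr10:79879417-79879716 (plus strand): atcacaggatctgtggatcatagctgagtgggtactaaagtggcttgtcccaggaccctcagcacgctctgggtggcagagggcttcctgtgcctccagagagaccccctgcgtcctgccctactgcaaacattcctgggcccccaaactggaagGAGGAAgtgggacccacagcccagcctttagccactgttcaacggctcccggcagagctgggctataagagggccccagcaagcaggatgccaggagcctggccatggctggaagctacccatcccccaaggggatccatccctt
Elane promoter, chr10:79886062-79886361 (plus strand): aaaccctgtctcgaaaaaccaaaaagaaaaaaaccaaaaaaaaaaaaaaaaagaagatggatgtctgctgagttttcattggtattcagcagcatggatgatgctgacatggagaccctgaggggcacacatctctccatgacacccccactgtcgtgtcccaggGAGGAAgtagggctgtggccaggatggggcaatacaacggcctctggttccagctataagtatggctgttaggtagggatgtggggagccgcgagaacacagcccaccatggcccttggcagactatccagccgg
Ctsg promoter, chr14:56102525-56102824 (minus strand): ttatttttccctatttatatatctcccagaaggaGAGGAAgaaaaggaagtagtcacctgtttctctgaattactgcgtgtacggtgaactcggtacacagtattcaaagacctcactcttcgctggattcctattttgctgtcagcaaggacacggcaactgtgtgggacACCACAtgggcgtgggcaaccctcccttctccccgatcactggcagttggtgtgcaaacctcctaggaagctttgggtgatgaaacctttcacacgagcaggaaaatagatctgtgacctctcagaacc
S100a8 promoter, chr3:90668821-90669120 (plus strand): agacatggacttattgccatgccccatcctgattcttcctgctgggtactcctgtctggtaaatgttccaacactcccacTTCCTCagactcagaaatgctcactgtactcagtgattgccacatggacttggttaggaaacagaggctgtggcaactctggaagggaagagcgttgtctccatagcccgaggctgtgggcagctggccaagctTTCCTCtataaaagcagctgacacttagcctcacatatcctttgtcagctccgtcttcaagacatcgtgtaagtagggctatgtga
Chil3 promoter, chr3:106167515-106167814 (minus strand): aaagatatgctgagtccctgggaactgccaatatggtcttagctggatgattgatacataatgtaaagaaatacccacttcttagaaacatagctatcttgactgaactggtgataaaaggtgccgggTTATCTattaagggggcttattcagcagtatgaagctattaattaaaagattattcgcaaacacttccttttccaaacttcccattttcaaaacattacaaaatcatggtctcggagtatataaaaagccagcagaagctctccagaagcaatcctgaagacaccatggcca
Prtn3 and Elane are neighbours on chromosome 10 with 6645 bases between their start sites. Counted from the start site, GAGGAA began at -95 in Prtn3 and at -85 in Elane. Of genes not shown, the primed Ms4a3 and the new F13a1 and Fcgr3 also held a match to it. The promoter table matched 75 of the 102 tested panel genes. GAGGAA occurred in 9 of 14 primed genes with a promoter (64.3%) and in 9 of 26 new genes (34.6%), against 30.4% of 10845 genes tested and 31.3% of 27025 RefSeq promoters. TTGCNNAA occurred in 21.4% of primed and 26.9% of new genes, against 10.1% of genes tested and 12.2% of all promoters. TGTGGT occurred in 28.6% and 30.8%, against 15.7% and 18.9%. AGATAA occurred in 0 of 14 primed and 5 of 26 new genes, against 8.4% and 12.7%. These are counts of letters in short windows and were not tested.

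Primary granule genes stood highest above lymphoid cells in MPP among the 6 lists, with a median of 2.26. In GMP 9 of the 11 tested rose further (81.8%), against 21.6% of all genes tested. Mpo, the peroxidase that makes hypochlorous acid, stood at 13.88, 13.89 and 13.90 on the GMP arrays and at 11.71 and 11.05 on the MPP arrays. ProB arrays read 4.33 and 3.83 and CD4T arrays 3.63 and 4.35. Every MPP array thus lay far above every lymphoid array and below every GMP array. Mpo was 2.51 ± 0.37 (SE) higher in GMP than in MPP, or 5.71-fold (limma, adjusted p = 3.75e-05), and MPP was 7.34 above lymphoid cells. Prtn3, the protease proteinase 3, read 12.71, 12.74 and 12.75 in GMP and 10.95 and 11.13 in MPP. Its groups did not overlap, and it was 3.23-fold higher in GMP (1.69 ± 0.34, adjusted p = 0.000663), from an MPP level 6.98 above lymphoid cells. For both genes most of the distance between lymphoid cells and GMP was already present in MPP.

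Ctsg, the protease cathepsin G, read 12.55, 12.57 and 12.63 in GMP and 9.78 and 8.68 in MPP, a difference of 3.35 ± 0.43 (10.2-fold, adjusted p = 9.43e-06). MPP lay 5.78 above lymphoid cells. Elane, neutrophil elastase, read 8.31, 7.89 and 8.26 in GMP and 5.63 and 6.75 in MPP. The MPP arrays differed by over 1 unit, yet both were below every GMP array and above every lymphoid array. Elane was 1.96 ± 0.31 higher in GMP (adjusted p = 6.81e-05), and MPP was 1.63 above lymphoid cells. Ms4a3, a membrane protein of the MS4A family found in early granulocyte-monocyte cells, read 11.17, 11.29 and 11.23 in GMP and 5.57 and 5.66 in MPP. It had the largest rise among primed genes, 5.61 ± 0.38 (49.0-fold, adjusted p = 2.86e-09), on an MPP level 2.01 above lymphoid cells. HSC read 3.57 and 4.21 and LMPP 3.82 and 4.0 for Ms4a3, so that the MPP arrays stood alone among the 3 stem and multipotent groups.

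The other primed members of the granule list were 2 lysozymes and a protease inhibitor. Lyz1 rose by 0.83 ± 0.25 (adjusted p = 0.0143), a call lost without MPP replicate 1 (0.74) and when its probe sets were averaged (0.46). Lyz2 read 8.26, 8.15 and 7.94 in GMP and 8.64 and 8.98 in MPP, and its difference of -0.70 did not pass the test (adjusted p = 0.0705). The 2 lysozyme genes are near-identical, so probe sets may share signal. Serpinb1a, which inhibits these proteases, rose by 1.61 ± 0.46 (adjusted p = 0.0103). It was used by ProB too (8.86 and 8.86), and against ProB alone it counted as new; its rise was not called without MPP replicate 1 (1.48). Of the remaining members, Cst7, a cystatin, rose by 2.34 and was new, Ctsc, which activates the granule proteases, rose by 2.31 (1.06 with the mean of its probe sets) without exceeding lymphoid cells by 1 unit, and the proteoglycan Srgn stood above 12 in both groups.

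**Figure D2:**
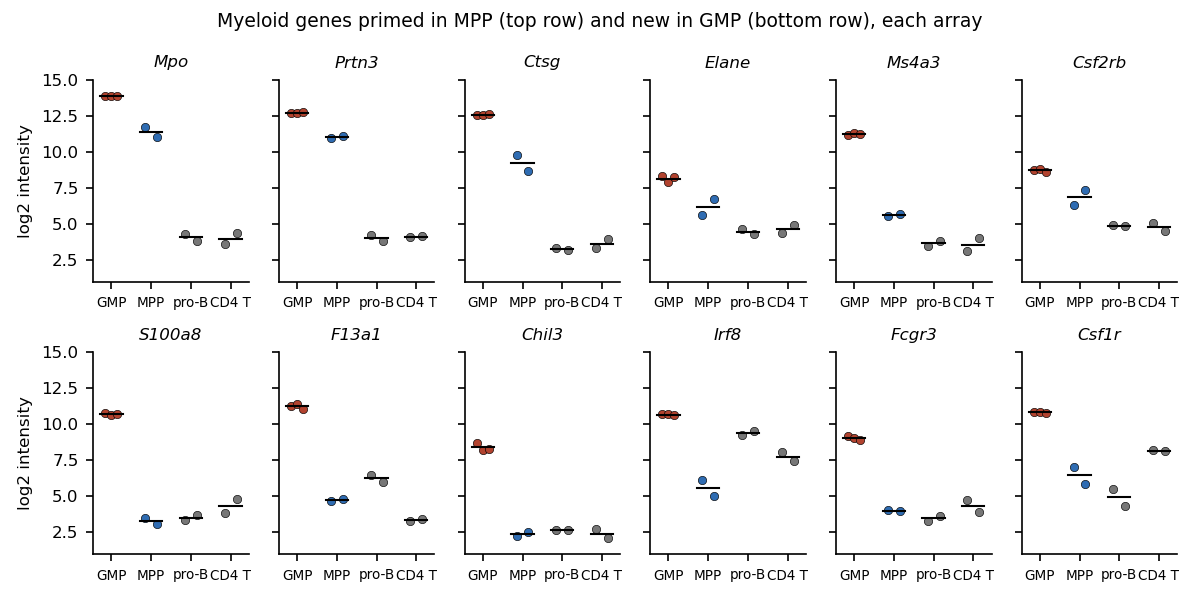
Log2 intensity of 6 primed genes (top) and 6 new genes (bottom) on every array of GMP, MPP, pro-B and CD4 T cells. Points are arrays and bars are group means. In the top row the MPP arrays lie between GMP and the lymphoid arrays, and in the bottom row the MPP arrays lie at or below the highest lymphoid array.

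In the main fit, none of the 11 later granule genes used in GMP met the definition of primed. S100a8, 1 subunit of calprotectin, read 10.78, 10.63 and 10.74 in GMP and 3.46 and 3.08 in MPP. The MPP arrays lay within or below the lymphoid arrays, which spanned 3.35 to 4.82. S100a8 had the largest rise of all genes tested, 7.44 ± 0.42 (173-fold, adjusted p = 3.48e-10). Its partner S100a9 rose by 4.85 ± 0.41 (adjusted p = 6.18e-08). With the actin covariate the rise of S100a9 was 3.30, and it no longer counted as used in GMP. High S100a8 was not particular to GMP in the series, since the arrays of Rag2-deficient NK cells with Ets1 averaged 12.03 ± 0.05 (SD, n = 2). Chil3, a chitinase-like protein, read 8.67, 8.20 and 8.30 in GMP and 2.23 and 2.51 in MPP, a difference of 6.02 ± 0.42 (adjusted p = 4.79e-09). Ngp (3.32), Mcemp1 (3.10), Wfdc21 (2.82), Lcn2 (2.41), Ltb4r1 (2.31), Ltf (1.95) and Camp (1.66) also rose and were new. Ngp and Camp, antimicrobial proteins of secondary granules, lost their calls with the actin covariate (0.93 and -0.21).

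Hp, haptoglobin, read 10.65, 10.42 and 10.31 in GMP and 4.91 and 5.10 in MPP. It rose by 5.45 ± 0.28 (adjusted p = 1.05e-10), but MPP lay 0.82 above lymphoid cells with a call (adjusted p = 0.0266), so it fitted neither class. Of genes of mature neutrophils, Cxcr2, Mmp9, Il1b, Mmp8 and Cd177 did not pass the test, with differences between -0.36 and 0.79. Padi4, which citrullinates histones, fell: it read 3.49, 3.55 and 3.43 in GMP and 5.43 and 5.57 in MPP (-2.01 ± 0.26, adjusted p = 9.4e-06), a call lost with the actin covariate (-0.79). Of the 19 genes of this list 12 rose (63.2%) and 1 fell (5.26%), with a median of 1.95, against 21.6% and 15.3% of all genes tested.

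In the main fit, monocyte and macrophage genes were new without exception among those that fitted a class. Of these, Emb, Lgals3 and Ms4a6d did not stand above CD4T in GMP (-0.82, -0.52 and -0.04). Against CD4T alone they did not count as used in GMP. F13a1, the factor XIII A chain, read 11.29, 11.42 and 11.03 in GMP and 4.65 and 4.81 in MPP, a rise of 6.52 ± 0.45 (91.5-fold, adjusted p = 4.28e-09). MPP lay above both CD4T arrays (3.30 and 3.40) and below both ProB arrays (6.48 and 5.99), and against CD4T alone it counted as primed. Csf1r, the M-CSF receptor, read 10.83, 10.86 and 10.77 in GMP and 7.07 and 5.83 in MPP. The rise was 4.37 ± 0.39 (adjusted p = 1.25e-07), or 2.87 with the mean of its probe sets. CD4T arrays read 8.23 and 8.12 and ProB arrays 5.52 and 4.36, so that Csf1r counted as primed against ProB alone. Ly86 (5.04), which partners a Toll-like receptor homologue, Mpeg1 (4.09), a pore-forming protein, and the protease Ctsh (3.38) rose and were new. Of the 22 tested genes of this list 14 rose (63.6%), against 21.6% of all genes tested. The 1 that fell was Ccr2, the chemokine receptor of blood monocytes (-1.04, adjusted p = 0.033), whose direction depended on the probe set: it was 3.39 for another and 1.31 for their mean. Adgre1, Cd68, Fn1 and Msr1 of the same list did not pass the test (-0.38 to 0.31).

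**Figure D3:**
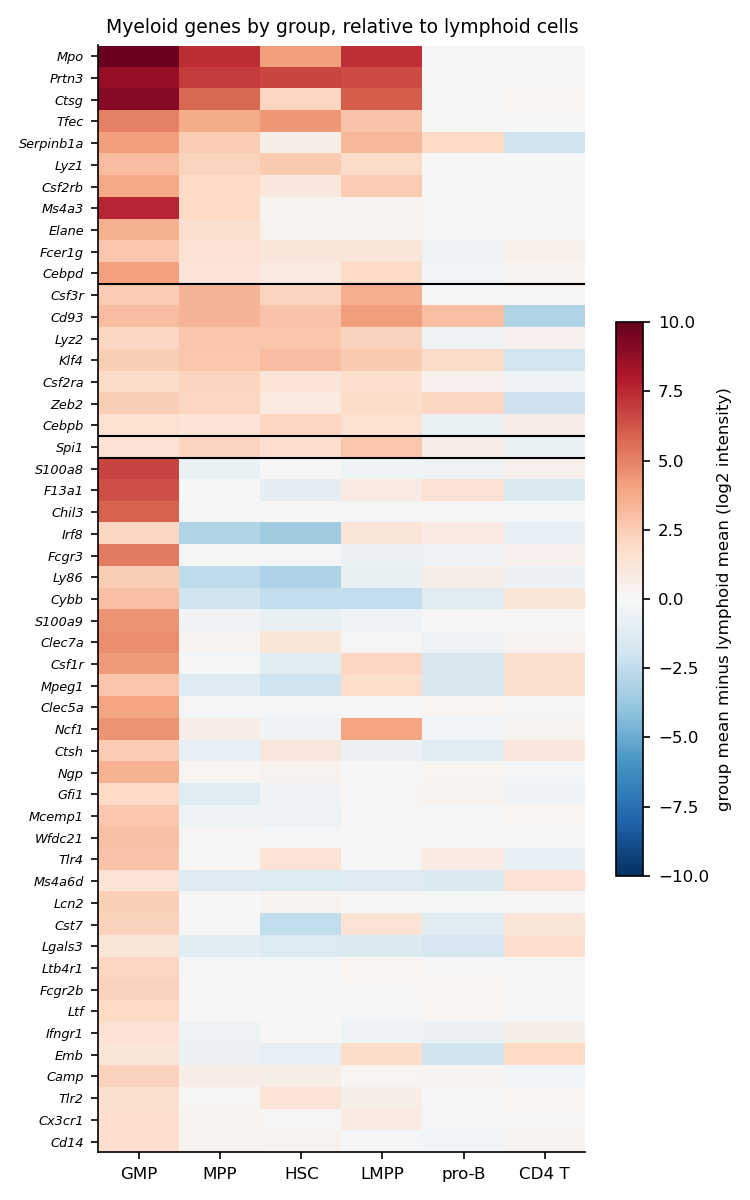
Mean level of the 19 primed and 32 new myeloid genes in 6 groups, in log2 intensity relative to the mean of pro-B and CD4 T cells. Rows are genes, and black lines separate primed and raised, primed without a call, primed and lower, and new genes. MPP is red in the upper 3 blocks and pale or blue in the lowest block. Irf8, Csf1r, Mpeg1, Ncf1 and Emb are redder in LMPP than in MPP.

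The NADPH oxidase makes superoxide in phagocytes. Its catalytic chain Cybb read 8.99, 8.72 and 8.13 in GMP and 3.41 and 3.87 in MPP, a rise of 4.97 ± 0.42 (adjusted p = 5.89e-08), or 2.41 with the mean of its probe sets. Ncf1, the organizer subunit, read 10.35, 10.36 and 10.60 in GMP and 7.20 and 5.92 in MPP, a rise of 3.88 ± 0.43 (adjusted p = 1.64e-06), or 2.06 with the probe set mean. Without MPP replicate 2 it fitted neither class. The partner chain Cyba did not pass the test (-0.67, adjusted p = 0.12), and Rac2, the GTPase of the complex, fell by 1.61 (adjusted p = 1.3e-05), or by 0.80 with the probe set mean, and lost its call with the actin covariate (-1.24). Subunits of the enzyme thus did not move together.

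Transcription factors rose and fell in equal number: 6 of 21 (28.6%) rose, 6 (28.6%) fell, and the median was 0.03. Over all genes tested, 21.6% rose and 15.3% fell. Cebpa, which encodes C/EBPα, read 7.06, 7.04 and 6.58 in GMP and 4.47 and 4.0 in MPP, a rise of 2.65 ± 0.23 (6.29-fold, adjusted p = 6.67e-08). MPP was 0.84 above lymphoid cells with a call, below the threshold of 1, and Cebpa counted as primed without MPP replicate 2 and as new without MPP replicate 1. Cebpd rose by 2.82 and was primed, but it fitted neither class with the mean of its probe sets (MPP 0.56 above lymphoid cells) or against CD4T alone (0.99). Irf8, which directs monocyte fate, read 10.68, 10.71 and 10.62 in GMP and 6.11 and 5.0 in MPP, a rise of 5.12 ± 0.34 (adjusted p = 2.53e-09). ProB (9.26 and 9.50) and CD4T (8.04 and 7.46) were both high, and MPP stood 3.01 below their mean. Gfi1, a repressor that favours neutrophils, read 9.22, 9.03 and 8.98 in GMP and 6.34 and 5.30 in MPP (3.25 ± 0.45, adjusted p = 2.18e-05), and lymphoid arrays, at 7.20 and 7.55 in ProB and 7.15 and 6.33 in CD4T, lay below every GMP array. Lymphoid cells thus carried Irf8 and Gfi1 too, and both genes stood lower in MPP than in the mean of lymphoid cells.

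Spi1, which encodes PU.1, was the 1 primed gene that was lower in GMP. It read 6.42, 6.67 and 6.48 in GMP and 7.37 and 7.22 in MPP, with no overlap, a difference of -0.77 ± 0.28 (adjusted p = 0.0391). That call was lost without any single GMP or MPP array, with the replicate block, with housekeeping centring and with no filter on dim genes (-0.91 to -0.67), and with the actin covariate (-1.74). Spi1 did not count as used in GMP against ProB alone, with a class threshold of 1.5 or with the actin covariate. Tfec, a factor of the MITF family, rose by 1.31 ± 0.19 (adjusted p = 3.01e-05) from an MPP level 3.70 above lymphoid cells. Klf4, Zeb2 and Cebpb were primed and did not pass the test (-0.23, 0.32 and 0.28). Their placing was weak. Another Zeb2 probe set rose by 3.02 and was new, another of Klf4 fell by 2.48, and Cebpb left the class with the probe set mean or against CD4T alone. Klf4 and Zeb2 were not used in GMP against ProB alone, nor were Klf4 and Cebpb with the actin covariate. Egr1 (-7.26) and Nr4a1 (-4.44) fell, followed by Stat3 (-0.89), Klf5 (-0.82) and Cux1 (-0.72), the last 3 with calls lost without MPP replicate 1 (-0.81, -0.96 and -0.74). Id2, an inhibitor of E proteins, rose by 2.76 (0.62 with the probe set mean).

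Several receptors of growth factors that drive myeloid cells stood above lymphoid cells in MPP. Csf3r, the G-CSF receptor, read 7.31, 6.70 and 6.97 in GMP and 8.10 and 7.67 in MPP, with MPP above every GMP array and 3.42 above lymphoid cells. The difference of -0.89 ± 0.36 did not pass the test (adjusted p = 0.0604), though it did in several alternatives, including repeated quantile normalization (-1.16). Csf2rb, the common beta chain of the GM-CSF, IL-3 and IL-5 receptors, read 8.77, 8.81 and 8.61 in GMP and 6.32 and 7.40 in MPP. It was primed by 2.01 and rose by 1.87 ± 0.32 (adjusted p = 0.000169), a call lost with the actin covariate (1.73). Csf2ra, the GM-CSF receptor alpha chain, was primed and did not pass the test (-0.34), while its other probe set rose by 1.39. With the actin covariate, neither Csf3r (-1.81) nor Csf2ra (-1.03) counted as used in GMP. Cd93 was primed by 3.36 (-0.25, not called), but ProB read 9.53 and 9.82, near its level in both progenitors. The adaptor Fcer1g was primed and rose by 1.29, a call lost with the actin covariate (1.25), and against CD4T alone it fitted neither class.

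Several receptors for microbes and antibodies were new. Fcgr3, a low-affinity IgG receptor used to sort GMP, read 9.21, 9.08 and 8.90 in GMP and 4.05 and 3.98 in MPP, a rise of 5.05 ± 0.28 (33.1-fold, adjusted p = 1.9e-10). Fcgr2b, its inhibitory relative, rose by 2.30. The antibodies used to sort GMP commonly bind both. The lectin receptors Clec7a (4.42) and Clec5a (4.07) rose, as did Tlr4 (2.77, or 0.87 with the probe set mean) and Tlr2 (1.49). Tyrobp, the adaptor through which Clec5a signals, read 9.89, 9.96 and 9.85 in GMP and 6.66 and 5.93 in MPP (3.61 ± 0.31, adjusted p = 6.71e-08). It fitted neither class, because MPP lay 0.86 above lymphoid cells with a call. Selplg, a selectin ligand, was the 1 receptor that fell (-0.75, adjusted p = 0.0092), a call lost without MPP replicate 1 (-0.73). Fcgr1, C5ar1 and Il3ra did not pass the test (-0.38 to 0.20).

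Just inside the primed class were Cebpb (MPP 1.28 above lymphoid cells), Cebpd (1.30) and Fcer1g (1.41). Just outside it, and in neither class, were Csf2rb2 (1.14) and Ms4a6c (1.14), both without a call in MPP, and Sirpa (0.96). Camp (0.63) and Ncf1 (0.64) were the new genes with the highest MPP level relative to lymphoid cells. Over 21 alternatives, 17 of 32 new genes and 9 of 19 primed genes kept their class in every one. The 9 were Mpo, Prtn3, Ctsg, Elane, Ms4a3, Lyz1, Lyz2, Csf2rb and Tfec. Of the 59 genes used in GMP, a second probe set carried a called change of opposite sign for Csf2ra alone, and 40 had 1 tested probe set only.

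The actin covariate enlarged other differences by over 1.5 times. Among primed genes it gave 3.77 for Mpo, 3.59 for Prtn3, 3.27 for Elane, 4.75 for Serpinb1a and 1.89 for Lyz1. Among new genes it gave 7.21 for Mpeg1, 5.74 for Gfi1 and 4.43 for Emb. All of these kept their call and their direction in that fit.

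HSC and LMPP arrays entered no class. Among all genes tested, 17.2% were called higher in HSC than in lymphoid cells. Relative to lymphoid cells, the 19 primed genes had medians of 2.14 in HSC, 2.26 in MPP, 2.56 in LMPP and 3.11 in GMP, and the 32 new genes had medians of -0.14, -0.10, 0.03 and 2.51 in the same order. Because all 4 are set against the same lymphoid arrays, and MPP and GMP levels chose the classes, these are descriptions. Prtn3 was already at 10.72 and 10.80 in HSC, Mpo at 8.59 and 7.89, and Ctsg at 5.88 and 5.38. Ms4a3 and Elane were near the lymphoid level in HSC, with Elane at 4.73 and 5.09.

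LMPP was compared with MPP with the same fit, in which 127 genes (0.942%) were higher in LMPP and 104 (0.772%) lower. Both comparisons share the MPP arrays. Irf8 read 9.45 and 10.06 in LMPP, 4.20 above MPP (adjusted p = 2.27e-06), near its GMP level. Ncf1 was 3.34 above MPP (adjusted p = 0.000384), Mpeg1 3.02 (adjusted p = 0.000858), Emb 2.45 (adjusted p = 0.00462) and Csf1r 2.23 (adjusted p = 0.00653). Cebpa was 1.35 above MPP (adjusted p = 0.00449). Of the primed genes, Ms4a3 (-1.70, adjusted p = 0.0392), Elane (-1.39, adjusted p = 0.0383) and Tfec (-0.86, adjusted p = 0.0383) were lower in LMPP than in MPP, and Mpo did not pass the test (-0.04).

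Genes outside the panel showed what GMP had left behind. Of 34 stem and multipotent genes, 31 fell and 0 rose, with a median of -2.47. Meis1, a homeobox partner of Hox proteins, read 6.02, 6.13 and 5.88 in GMP and 10.08 and 10.92 in MPP (-4.49 ± 0.47, adjusted p = 8.15e-07), or -2.47 with the mean of its probe sets, and its call was lost with the actin covariate (-1.21). Procr, the endothelial protein C receptor, fell by 4.10 and Hlf, a stem cell transcription factor, fell by 4.04, with all arrays apart. Hox, Meis and Pbx genes fell in 6 of 14 (42.9%) and rose in 0, against 15.3% and 21.6% of all genes tested. Erythroid and megakaryocyte genes fell in 19 of 31, with a median of -1.36: Car2 fell by 5.18, Pf4 by 3.87 and Itga2b by 3.43, all higher on both MPP arrays than on any GMP array. The calls of Car2 and Pf4 were lost with the actin covariate (-2.61 and -2.38). Gata1, the erythroid factor, read 5.65, 5.71 and 5.50 in GMP and 6.92 and 8.30 in MPP (-1.99, adjusted p = 0.000489), or -1.30 without MPP replicate 2, and its call was lost with the actin covariate (-1.40). The 1 gene of the list that rose was Tfrc, the transferrin receptor of dividing cells (1.60, or 0.60 with the probe set mean).

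**Figure D4:**
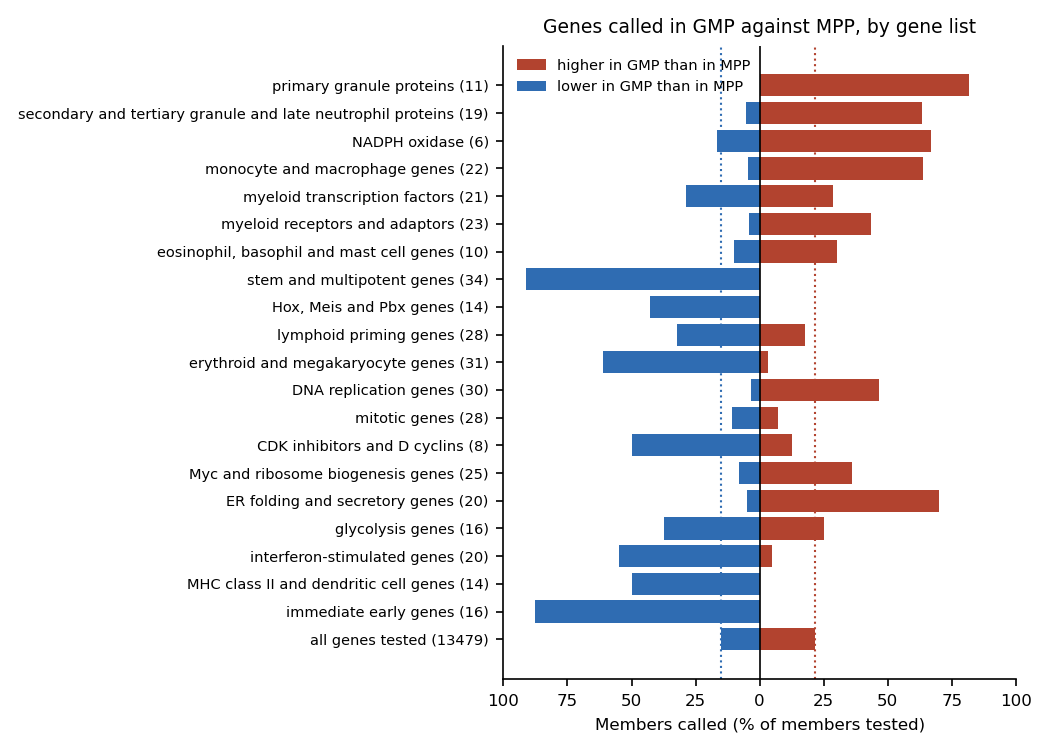
Share of tested members of each gene list that were called higher (to the right) or lower (to the left) in GMP than in MPP, in percent, with the number tested in brackets. Dotted lines mark the shares over all 13479 genes, 21.6% higher and 15.3% lower. Primary granule and ER folding lists reach farthest right, and stem and immediate early lists farthest left.

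Lymphoid priming genes went both ways, with 9 of 28 lower (32.1%) and 5 higher (17.9%). Over all genes tested, 15.3% were lower and 21.6% higher. Flt3, the cytokine receptor of multipotent and lymphoid progenitors, read 6.40, 6.46 and 6.36 in GMP and 9.72 and 8.34 in MPP (-2.63 ± 0.39, adjusted p = 3.97e-05), a call lost with the actin covariate (-2.69, adjusted p = 0.0577). Dntt, terminal transferase, fell by 3.29 and Ltb, lymphotoxin beta, by 4.09. Among those that rose were Notch1 (1.57, or 0.98 with the probe set mean and not called at 0.78 with the actin covariate) and Satb1 (1.51, or 0.65 with the probe set mean). Ighm rose by 4.33 for its main probe set and by 0.50 for the mean of its probe sets, a difference that was then not called. MHC class II and dendritic cell genes fell in 7 of 14 and rose in 0. Among those that fell, H2-Ab1 and H2-Oa lost their calls with the actin covariate (-0.77 and -1.81). Eosinophil, basophil and mast cell genes rose in 3 of 10: Ms4a2, a chain of the IgE receptor, rose by 2.85, the basophil protease Mcpt8 by 2.33 and Prg2 by 1.70, while Gata2 fell by 3.15. The calls of Ms4a2, Mcpt8 and Prg2 were lost with the actin covariate (2.45, 2.15 and 4.18). That of Prg2 was also lost without either MPP array, without GMP replicate 1 or 2, with housekeeping centring, with no filter on dim genes, with no intensity trend, and with its gene's probe sets averaged or all probe sets tested singly (1.42 to 1.75). Hdc, which makes histamine, did not pass the test for its main probe set (0.62), while its other probe set rose by 6.45 (adjusted p = 6.23e-10).

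Marker lists of other cells were read beside the panel. Over all genes tested, 21.6% were called higher and 15.3% lower in GMP. The mean of 8 B cell markers was 3.87 to 4.0 on GMP arrays and 3.76 to 3.80 on MPP arrays, against 9.09 in ProB, and 0 of 8 passed the test. Of 10 T and NK cell markers 1 fell, with means of 3.82 to 3.94 and 3.93 to 4.08, against 6.98 in CD4T. Of 5 tested erythroid markers 1 fell, of 8 macrophage markers 1 rose, the scavenger receptor Cd163 (1.58, adjusted p = 0.0114), and of 3 tested stromal and endothelial markers 1 fell. Mature neutrophil markers averaged 4.94 to 5.10 in GMP and 4.01 to 4.16 in MPP, where Ngp, Ltf and Camp rose and the other 5 did not pass the test. Mast and basophil markers averaged 5.95 to 6.05 in GMP and 5.13 to 5.19 in MPP, with 2 of 6 higher. The part of either cell type in the granule results was not tested.

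Of 20 genes for protein folding in the endoplasmic reticulum 14 rose and 1 fell, with a median of 1.17. Xbp1, the transcription factor of the unfolded protein response, read 11.18, 11.06 and 10.97 in GMP and 8.38 and 9.0 in MPP (2.38 ± 0.39, adjusted p = 0.00011). The chaperones Dnajc3 (2.04) and Canx (1.98) rose beside it, and Ddit3, a stress factor, fell by 1.12, a call lost when any of GMP replicates 1 and 3 or the MPP arrays was left out. Of 30 DNA replication genes 14 rose and 1 fell, with a median of 0.65. Several of these rises were larger with the actin covariate, with 9.01 for Ccne2, 6.65 for Cdc6 and 4.26 for Xbp1. Ccne2, cyclin E2, read 8.52, 8.31 and 8.29 in GMP and 2.88 and 3.80 in MPP (5.03 ± 0.52, adjusted p = 8.15e-07), and the licensing factor Cdc6 rose by 2.75. The 1 that fell was Pcna, the sliding clamp (-1.21, adjusted p = 0.029); that call was lost without any single array of either group, and its sign turned with the actin covariate (2.16). Mitotic genes did not follow: 2 of 28 rose (7.14%) and 3 fell (10.7%), with a median of -0.20. Over all genes tested, 21.6% rose and 15.3% fell.

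Of 25 Myc and ribosome biogenesis genes 9 rose and 2 fell, with a median of 0.36. Of 8 CDK inhibitors and D cyclins 4 fell and 1 rose. Among those that fell was Ccnd3 (-1.70, or -1.08 with the probe set mean and not called at -1.0 with the actin covariate). Cdkn1b rose (0.73, or 0.02 with the probe set mean), a call lost without any single GMP array (0.62 to 0.82). Glycolysis genes went both ways, with 4 of 16 higher (25%) and 6 lower (37.5%), against 21.6% and 15.3% of all genes tested. The hexokinases Hk3 (3.23, or 2.14 with the probe set mean) and Hk2 (2.02) and the enzymes Pgk1 (1.34) and Pgam1 (1.22) rose, while Aldoc (-3.21, or -1.87), the glucose transporter Slc2a3 (-2.91, or -1.43), Pfkl (-2.32) and Pfkm (-1.72) were among those that fell. The calls of Hk2 and Pfkm were lost with the actin covariate (1.96 and -0.73) and that of Pgam1 without MPP replicate 1 (1.08). Of 20 interferon-stimulated genes 11 fell and 1 rose, with a median of -0.86. Among those that fell, Bst2, Oasl2, Gbp2 and Rtp4 lost their calls with the actin covariate (-0.90, -2.02, -1.95 and 0.0102). Gbp3, the 1 that rose (1.86), lost its call without MPP replicate 1 (1.57).

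Several of the largest falls were of immediate early genes, which cells induce within minutes of stimulation or handling. Of 16 listed, 14 fell (87.5%) and 0 rose, against 15.3% and 21.6% of all genes tested, and the median was -3.86. Egr1, an early growth response factor, read 4.07, 4.38 and 4.01 in GMP and 10.99 and 11.84 in MPP (-7.26 ± 0.51, adjusted p = 5.66e-09). Fosb, an AP-1 subunit, read 3.22, 3.20 and 3.53 in GMP and 9.39 and 10.29 in MPP (-6.52 ± 0.39, adjusted p = 6.82e-10). For both genes every GMP array lay far below every MPP array, and Egr1 was -11.18 with the actin covariate. Jun fell by 5.60, Zfp36, which destabilises cytokine RNAs, by 6.14, and Socs3, an inhibitor of cytokine signalling, by 5.75. Rgs1, a regulator of G protein signalling, had the largest fall of all genes (-7.32). The part of sorting and handling in these levels was not tested.

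**Figure D5:**
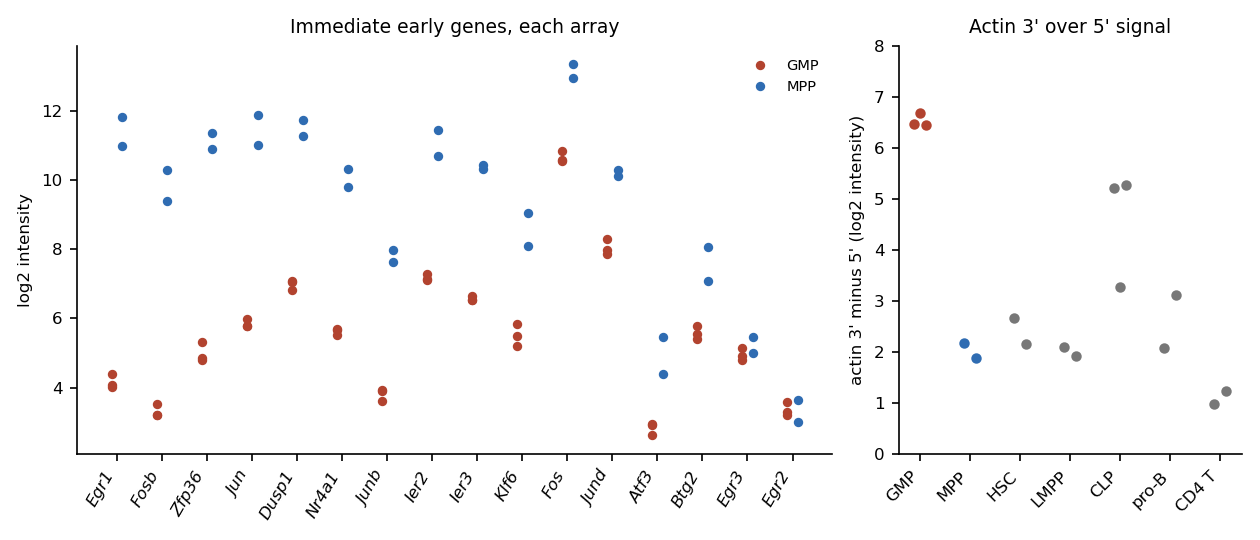
Left, log2 intensity of 16 immediate early genes on each GMP and MPP array. Right, log2 difference between the 3' and 5' actin control probe sets on arrays of 7 groups. GMP lies below MPP for 14 genes, with overlap for Egr2 and Egr3, and the 3 GMP arrays have the highest actin differences, 6.44 to 6.68.

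Among the 10 largest rises outside the panel lists were Anxa3, an annexin of neutrophil granules, which read 11.27, 11.27 and 11.23 in GMP and 4.43 and 4.46 in MPP (6.81 ± 0.33, adjusted p = 4.15e-11). Prom1, which encodes the membrane protein prominin, read 9.36, 9.35 and 9.10 in GMP and 3.58 and 3.02 in MPP (5.97 ± 0.24, adjusted p = 2.72e-12). Both groups were tight and far apart. Igsf6 (5.92) and Mgam (5.62), a maltase also found in neutrophils, followed. Sgms2 (6.80, or 4.52 with the mean of its probe sets) and Met, the HGF receptor (5.98, or 3.03), moved by over 1.5 times when their probe sets were averaged. All 6 met the definition of new in GMP.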

How the data were processed

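The series comprises 20 Affymetrix mouse arrays, which the labels place in 9 groups. Each array's deposited values are intensities, 1 for every probe set, that the authors made with RMA, per the submitters' processing notes. No RMA version was named there. The intensities were linear, whereas the planned test assumed log2 values, so their log2 was taken first. Gene names came from the platform table: 34958 of 45101 probe sets had 1 symbol, 932 several and 9211 none, and 34754 matched RefSeq (GRCm38.p6) by Entrez ID. Each gene was read from its probe set of highest mean. Of 18194 genes, 13479 were tested, those exceeding the array median on 2 or more arrays. For arrays, their number limits the precision.

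Contrasts came from a single limma 3.58.1 model (R 4.3.3) over all arrays, moderated by eBayes using a trend on intensity, with 11 residual degrees of freedom. The script was tested on simulated data. P-values are two-sided and adjusted by Benjamini-Hochberg over all genes tested, and errors are standard errors (SE) of the model. The members, lists and class rule were chosen with earlier results of these data known. Named genes were the 10 largest changes in each direction, up to 4 called members per list and direction, up to 8 members per class and a set of defining genes, and other panel members are named to account for the lists. Sequences are RefSeq promoters. Some list members were not analysed here. Deviations of same-numbered GMP and MPP arrays from their group means correlated at -0.179 and -0.009 over genes. With 2 MPP arrays, swapped numbers give the same values with opposite sign, so this check cannot decide on pairing. The numbers were not taken as pairs. Alternatives changed the dim filter, the probe set rule, the scaling, the arrays fitted, array weights, a replicate block, the lymphoid cells, the class threshold and single arrays.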

Additional observations from a re-analysis of the deposited data

How the results depend on the processing

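The counts of genes higher and lower in GMP, 2912 and 2056, moved with the arrays used and with the actin covariate. Leaving out 1 GMP or MPP array gave 1686 to 2693 higher and 1394 to 1634 lower, with the fewest without MPP replicate 1, and 19 to 21 primed and 32 to 35 new panel genes. With at least a 2-fold change required, 2355 were higher and 1321 lower. With the actin covariate 2472 were higher and 879 lower, 16 panel genes were primed and 28 new. Over the alternatives that kept all GMP and MPP arrays, primed genes numbered 15 (class threshold 1.5) to 26 (threshold 0.5, or housekeeping centring), and new genes 26 to 34. Repeated quantile normalization gave 2495 higher and 2487 lower, so 50.1% of called genes were higher, against 58.6%. Housekeeping centring moved the median of all genes to -0.16. With the 5 GMP and MPP arrays fitted alone 3996 were higher and 3051 lower, and with array weights 3814 and 2846. With a replicate block, on which the pairing check cannot decide, 3231 were higher and 2072 lower, 20 panel genes were primed and 32 new.

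Of 182 genes followed through all alternatives, 145 were called. In at least 1 setting, 59 of the 182 lost their call or turned in sign with a call in either fit. These include Csf2ra and Maf, which were not called in the main fit. Among signs with a call in either fit, those of Ccr2 (1.31 with the mean of its probe sets, 3.39 for another) and Csf2ra (1.39 for another probe set) turned. With the actin covariate they turned for Pcna (2.16), Plk1 (0.12), Cdkn2d (0.052), Cdkn2c (0.63), Rtp4 (0.0102), Camp (-0.21) and Maf (3.09). Signs of genes called in neither fit turned too, with the actin covariate for Lyz2 (0.64), Cyba (0.74), Il6ra (-1.46), Mmp8 (-0.66) and Cd33 (-0.20) among others. The cause was not tested. The actin covariate and a fit without 2 of the 3 common lymphoid progenitor (CLP) arrays, with 3499 higher and 2599 lower, were added after seeing the data.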

Other observations

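The 2 MPP arrays differed from each other along lineage lists. Of 34 stem and multipotent genes, 32 were higher on MPP replicate 2, with a median difference (replicate 1 minus replicate 2) of -0.72, and of 31 erythroid and megakaryocyte genes 23 were higher on it, with a median of -0.44. Over all 13479 genes the median was -0.13. Lymphoid priming genes had a median of 0.20, with 18 of 28 higher on replicate 1. Flt3, the receptor of early lymphoid and multipotent cells, read 9.72 on replicate 1 and 8.34 on replicate 2. Gata1, the erythroid factor, read 6.92 and 8.30, and Ms4a2, a chain of the IgE receptor, 3.78 and 5.46. Primary granule genes were split, with Mpo at 11.71 and 11.05, Ctsg at 9.78 and 8.68, and Elane at 5.63 and 6.75. With 2 arrays this spread was not tested, and it is contained in the error of each contrast with MPP.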
